A study of Homo sapiens with 40 samples.

Results

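The treatment described is 1 nM ONO-AE1-329 (ONO below), which activates EP4, a receptor of prostaglandin E2, together with 1 uM roflumilast N-oxide (RNO, an inhibitor of PDE4) set against RNO alone, in BEAS-2B, an immortalised human bronchial epithelial cell line. The comparison takes 4 libraries of the combination and 4 libraries of RNO alone, out of 40 libraries in 10 groups of 4 in the whole series, and it covered 12591 of the 15788 deposited gene entries, those whose mean over the series reached 1 TPM. Confluent cells had been kept overnight in serum-free medium and were then treated for 2 h. Both groups carry RNO, so the comparison gives the response to a sub-maximal concentration of the agonist in cells whose PDE4 is inhibited. The other groups used below are vehicle, 1 nM ONO without RNO, 0.1 nM ONO with RNO, 1 uM ONO with RNO, and 100 nM vilanterol, a long-acting bronchodilator, with RNO. Nothing in the labels says that replicates came from separate cultures, so p-values measure no more than how far these samples spread, and that spread may be technical.

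EP4 couples to Gs, which activates adenylyl cyclase and so raises cAMP inside the cell. cAMP activates protein kinase A, which phosphorylates the transcription factor CREB, and CREB bound at cAMP response elements in promoters raises a set of rapidly induced genes. PDE4 enzymes break cAMP down, and PDE4D and PDE4B are themselves induced by cAMP, which closes a feedback loop. Agents that raise cAMP, PDE4 inhibitors among them, are used in obstructive lung disease.

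The values are normalised TPM (a transcript level scaled for transcript length and library size and then adjusted between samples by the authors). TPM keeps no depth, so the read depth of each library is unknown. Column totals lay between 956888 and 1091466 over the 40 libraries, and a single entry, MIR6723, held 24.2% to 27.8% of each total. BEAS-2B was checked against cell type markers in the 8 libraries. The keratins KRT8 and KRT18 were at means of 361 and 289 TPM with RNO and 347 and 279 TPM with the combination, whereas the epithelial adhesion genes EPCAM and CDH1 were at 0.270 and 0.803 TPM with RNO. The mesenchymal filament gene VIM was at 1301 and 1294 TPM. Over the 8 epithelial markers in the table (of 12 on the list) the summed level was 965 to 1170 TPM with RNO and 1260 to 1410 TPM with the combination, and without KRT17 it was 697 to 862 and 734 to 806 TPM. Sums for the 9 mesenchymal markers in the table (of 11) were 1890 to 2020 and 1950 to 1990 TPM. The 2 leukocyte markers in the table (of 8) summed to 12.1 to 14.1 and 12.3 to 14 TPM, nearly all of it CD68, and the 3 endothelial (of 6) to 0.507 to 0.563 and 0.540 to 0.634 TPM. The 2 ciliated and secretory markers in the table (of 9) summed to 1.47 to 1.81 and 1.19 to 1.44 TPM. The libraries are bulk, so for any gene below fewer cells of a kind and less RNA per cell cannot be told apart.

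With 1 nM ONO added to RNO, 165 genes rose and 47 fell. The 3 NR4A orphan nuclear receptors, the non-coding RNA LINC00473, the zinc finger gene ZNF331, the surface protein gene TM4SF1, the kinase gene SGK1, the G protein signalling regulator RGS2 and the secreted protein gene CRISPLD2 had the largest rises. Genes that fell did so by less, led by the regulator RGS4 and the AP-1 subunit FOSL1, and they included mitotic genes such as HJURP, PLK1 and AURKA. Calls rest on limma's test of log2(TPM + 1), with Benjamini-Hochberg adjustment over all genes and a threshold of 0.05, and 1.68% of the 12591 genes tested were called (1.31% higher and 0.373% lower). By at least 2-fold on that scale, which understates the change of low genes, 16 rose and 0 fell. The median log2 fold change over all genes tested was -0.00266. In 192 of the 212 called genes (150 higher, 42 lower) the 4 libraries of each group did not overlap, beside 5.3% of all genes tested.

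Replicate numbers pair these samples, and with the replicate number as a block limma called 604 genes (4.8%), 401 higher (3.18%) and 203 lower (1.61%), among them all 212. Fitting only these 8 libraries called 98 higher and 14 lower. The count of genes that fell was 24 without replicate 4 of the combination, 26 without RNO replicate 1 and 27 without replicate 2 of the combination. Replicate 1 of the combination was the lowest of its group in 97 of the 165 genes that rose and the highest in 32 of the 47 that fell. RNO replicate 3 was the highest of the RNO libraries in 91 of the 165. A further 14 entries differed by over 2-fold without being called, and 12 of them are named as microRNA or small nucleolar RNA entries.

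**Figure D1:**
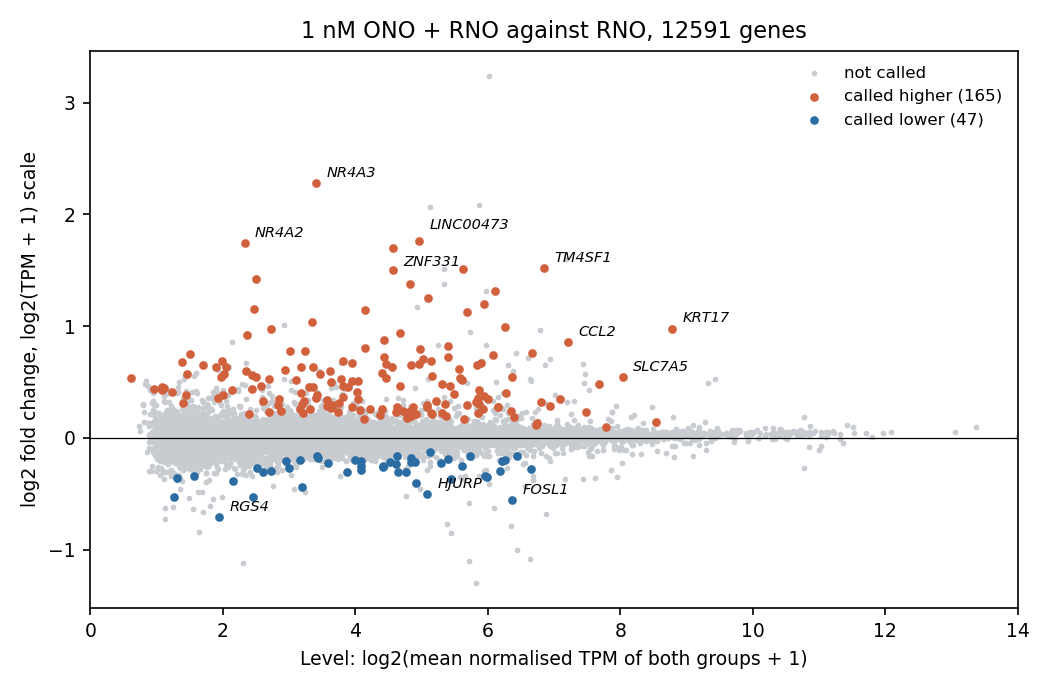
Each point is a gene: the x axis is the level, log2(mean normalised TPM of both groups + 1), and the y axis the log2 fold change of 1 nM ONO + RNO against RNO on the log2(TPM + 1) scale. The 165 genes called higher reach 2.28 (NR4A3), and the 47 called lower reach -0.71 (RGS4); grey points are genes not called.

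The plot of all genes shows that the called rises spread from genes at a few TPM or less, such as NR4A2, to KRT17 at 293 TPM with RNO, and that the called falls stay closer to 0 than the largest rises.

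Genes known to be induced by cAMP had the highest median of the 24 gene lists. Of 19 tested members 13 rose and 0 fell, with a median log2 fold change of 0.76 beside -0.00266 over all genes tested. The shares to set beside this list and those below are 1.31% higher and 0.373% lower over all genes tested. With the replicate block they are 3.18% and 1.61%. The 13 were NR4A3, LINC00473, NR4A2, ZNF331, SGK1, RGS2, CRISPLD2, NR4A1, PDE4D, DUSP1, PER1, CREM and CD55. This list and the others were written with earlier results of these data known, so their counts are descriptions. With the replicate block 18 of the 19 were called higher, the added members being AREG, ATF3, FOSL2, NFIL3 and PDE4B.

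NR4A3, an orphan nuclear receptor and early cAMP target, read 1.34, 3.26, 3.69 and 2.29 TPM in RNO replicates 1 to 4 and 11.2, 20.0, 14.9 and 19.9 TPM in the same replicates of the combination. No combination library came near the RNO range. Its mean rose from 2.65 ± 1.05 to 16.5 ± 4.26 TPM (SD, n = 4), 6.23-fold (log2 fold change 2.28, SE 0.18, limma adjusted p = 1.01e-10). Its relative NR4A2 read 0.774, 1.35, 2.04 and 1.14 TPM with RNO and 6.5, 7.78, 5.39 and 7.16 TPM with the combination, a 5.06-fold rise (limma adjusted p = 2.16e-08). NR4A1, the third of the family, started from a higher level, with 9.36, 16.6, 19 and 13.6 TPM and then 27.4, 50.8, 30.4 and 52.1 TPM. It rose 2.74-fold (limma adjusted p = 5.97e-05), and in all 3 genes every combination library lay above every RNO library.

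LINC00473, a long non-coding RNA that is a known CREB target, read 8.76, 15.1, 16 and 13.6 TPM with RNO and 37.2, 50.8, 44.4 and 55.9 TPM with the combination. No library overlapped, and the mean rose 3.52-fold, from 13.4 ± 3.22 to 47.1 ± 8.08 TPM (limma adjusted p = 1.62e-08). ZNF331 encodes a KRAB zinc finger protein. It read 7.62, 11.9, 11.8 and 9.27 TPM and 29.7, 40.2, 30.4 and 40.3 TPM, a 3.46-fold rise (limma adjusted p = 1.93e-10), with replicates 1 and 3 of the combination below replicates 2 and 4. RGS2, which speeds the shut-off of Gq and other G proteins, read 8.47, 11.6, 13.1 and 12.4 TPM and 38.6, 34.1, 24.6 and 39.7 TPM. Its rise was 3.01-fold (limma adjusted p = 2.33e-05), and replicate 3 of the combination, the lowest, still exceeded all RNO libraries.

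The promoters of the most raised genes are shown because CREB binds the palindrome TGACGTCA and its core TGACG, and these are the genes with the largest rises that hold the core, among those with a window at hand. Each line gives the 250 bases before the RefSeq transcript start in GRCh38.p14, read 5′ to 3′ on the gene's strand, with every TGACG, or CGTCA where the core is on the other strand, in capitals. The windows are chr9:99821635-99821884 (plus strand) for NR4A3, chr6:165988040-165988289 (minus strand) for LINC00473, chr19:53554577-53554826 (plus strand) for ZNF331, which is 1 of its 6 windows, and chr1:192808789-192809038 (plus strand) for RGS2. Where a gene had several windows, the one with the most cores is shown, so the ZNF331 window was chosen for its cores.
NR4A3: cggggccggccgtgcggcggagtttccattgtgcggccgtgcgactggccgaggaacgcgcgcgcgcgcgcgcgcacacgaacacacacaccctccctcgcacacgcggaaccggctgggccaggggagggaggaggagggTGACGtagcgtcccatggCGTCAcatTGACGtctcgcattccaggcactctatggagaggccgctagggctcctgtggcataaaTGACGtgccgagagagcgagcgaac
LINC00473: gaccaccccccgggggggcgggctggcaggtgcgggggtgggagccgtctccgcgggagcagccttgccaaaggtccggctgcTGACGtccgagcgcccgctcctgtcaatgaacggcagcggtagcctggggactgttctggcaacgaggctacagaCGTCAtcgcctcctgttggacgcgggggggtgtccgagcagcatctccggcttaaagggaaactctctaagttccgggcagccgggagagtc
ZNF331: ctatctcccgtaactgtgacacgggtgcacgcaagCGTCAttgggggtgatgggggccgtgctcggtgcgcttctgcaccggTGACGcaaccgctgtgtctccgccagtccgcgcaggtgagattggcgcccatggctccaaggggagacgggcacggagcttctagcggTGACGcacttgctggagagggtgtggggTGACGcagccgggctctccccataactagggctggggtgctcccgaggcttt
RGS2: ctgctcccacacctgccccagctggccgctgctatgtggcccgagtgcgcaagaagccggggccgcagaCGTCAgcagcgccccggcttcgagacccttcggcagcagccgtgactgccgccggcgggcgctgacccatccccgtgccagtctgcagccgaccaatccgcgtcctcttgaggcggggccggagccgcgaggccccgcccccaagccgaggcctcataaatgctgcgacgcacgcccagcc
In NR4A3 the 4 cores begin 109, 91, 83 and 25 bases before the start, in LINC00473 the 2 begin 167 and 92 bases before it, in ZNF331 the 4 begin 215, 168, 80 and 52 bases before it, and in RGS2 the core begins 181 bases before it. None of these 4 windows held the full palindrome, and the windows of TM4SF1 (1) and SGK1 (3) held neither. No window was at hand for NR4A2. Lower in the order of rises, the core was also in windows of CD24, CD200, RHOB and IL6, and it was not in those of CRISPLD2, NR4A1, IL11 and PLPP3. A window of 250 bases before to 50 after a start was at hand for 134 of the 165 genes that rose (81.2%). TGACG on either strand, palindromes included, was in 49.3% of these 134 genes and in 41.2% of the 9833 tested genes with a window (78.1% of all tested), and TGACGTCA in 10.4% and 3.95%. Counted over windows, of which genes have different numbers, the shares were 35.3% and 32.4% for TGACG and 6.22% and 2.91% for TGACGTCA. For the genes that fell windows were at hand for 36 of 47 (76.6%), too few for a comparison, with TGACG in 38.9% of the 36 and TGACGTCA in 0%. Windows were missing at a like rate among all tested genes, so the shares for the rises are a description, and they were not tested. A match describes these letters and does not show that a factor binds there.

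SGK1, a serum- and glucocorticoid-inducible kinase that regulates ion channels, read 20.0, 23.9, 33.7 and 22.4 TPM with RNO and 74.8, 76.3, 65.1 and 71.4 TPM with the combination. It rose 2.88-fold (limma adjusted p = 1.69e-06), with an RNO replicate 3 well above the other RNO libraries. CRISPLD2, a secreted protein known as glucocorticoid-inducible, read 1.57, 2.1, 2.87 and 1.66 TPM and 4.31, 7.8, 8.51 and 8.56 TPM. The rise was 3.55-fold (limma adjusted p = 2.97e-07), and replicate 1 of the combination lay between the RNO libraries and its 3 fellows. Smaller rises in the list were those of DUSP1 (74.5 ± 10.2 to 128 ± 23.5 TPM), PER1 (10.8 ± 1.99 to 18 ± 4.62 TPM), CD55 (52.4 ± 3.02 to 61.3 ± 3.46 TPM) and CREM (8.05 ± 0.407 to 9.83 ± 0.156 TPM, SD, n = 4). The PER1 groups overlapped. The 6 members not called had log2 fold changes of 0.15 to 0.67, the highest being AREG, a ligand of the EGF receptor, at 2.87 ± 0.598 and 5.32 ± 1.82 TPM (limma adjusted p = 0.0702, 0.00118 with the replicate block).

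**Figure D2:**
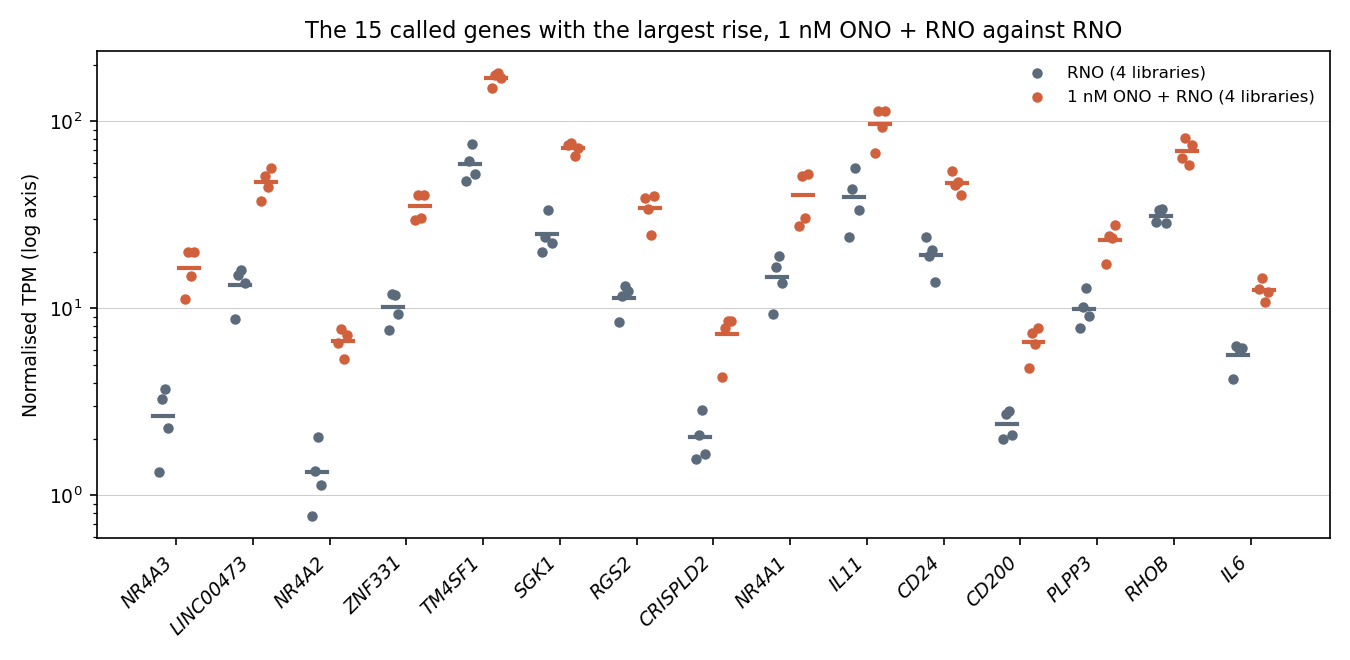
Normalised TPM (log axis) of the 15 called genes with the largest rise among entries that name 1 symbol and whose groups do not overlap. Points are libraries, 4 of RNO (grey) and 4 of 1 nM ONO + RNO (orange), and bars are group means, from 2.65 and 16.5 TPM for NR4A3 to 5.66 and 12.6 TPM for IL6.

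On the log axis of the plot of the 15 largest rises the RNO libraries spread most for NR4A3 (1.34 to 3.69 TPM) and NR4A2 (0.774 to 2.04 TPM). The combination libraries spread most for CRISPLD2 (4.31 to 8.56 TPM) and NR4A1 (27.4 to 52.1 TPM), and least for SGK1 and TM4SF1.

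Most of the machinery that makes, senses and removes cAMP changed little at the RNA level, with the largest called rises in PDE4D and AKAP12. PTGER4, the gene of EP4 itself, read 1.58, 1.27, 1.24 and 1.48 TPM with RNO and 1.45, 1.15, 0.986 and 1.46 TPM with the combination, and the groups overlapped (limma adjusted p = 0.999). The adenosine receptor gene ADORA2B was at 21.7 ± 0.785 and 21.2 ± 0.746 TPM, and GNAS, which encodes the Gs alpha subunit, at 763 ± 17.7 and 782 ± 27.7 TPM (SD, n = 4, limma adjusted p = 0.999 for both). None of the 9 tested genes of cAMP synthesis and its receptors was called in either fit, and their log2 fold changes lay between -0.09 and 0.09.

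Of 7 tested cAMP phosphodiesterase genes 1 rose and 0 fell. This was PDE4D, with 2.51, 3.38, 4.26 and 3.65 TPM in the RNO libraries and 5.97, 7.62, 8.54 and 8.88 TPM in the combination libraries. The groups did not overlap, and the mean rose 2.25-fold to 7.75 ± 1.3 TPM (log2 fold change 0.98, SE 0.10, limma adjusted p = 2.16e-08). PDE4B read 1.97, 2.27, 1.76 and 1.59 TPM and 3.07, 2.62, 2.33 and 2.43 TPM, without overlap, and missed the threshold (limma adjusted p = 0.0929) but was called with the replicate block (adjusted p = 0.00444). PDE4A was at 1.77 ± 0.237 and 1.77 ± 0.267 TPM (SD, n = 4, limma adjusted p = 0.999), and PDE4C, at 0.422 ± 0.121 and 0.523 ± 0.198 TPM, lay below the level needed for a test. PDE8A, of another cAMP-specific family, was at 12 ± 0.876 and 12.1 ± 0.399 TPM.

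Among 13 tested subunits, inhibitors and anchors of protein kinase A 1 rose, the anchor AKAP12, from 43.3 ± 5.89 to 68.8 ± 11.9 TPM (SD, n = 4, limma adjusted p = 0.000742). The 12 others had log2 fold changes of -0.08 to 0.11. Of 11 tested genes of the CREB family, its coactivators and the SIK kinases 2 rose, the CREB-related modulator CREM, 1.22-fold, and the membrane-bound factor CREB3L2, 1.24-fold. CREM read 7.46, 8.39, 8.11 and 8.24 TPM and then 9.79, 9.69, 10.1 and 9.78 TPM, without overlap (limma adjusted p = 0.0293). Neither call held throughout when libraries were left out in turn. That of CREM was lost without any single library other than RNO replicate 2 (limma adjusted p up to 0.15). That of CREB3L2 was lost without replicates 2, 3 or 4 of the combination or replicates 1 or 4 of RNO (up to 0.145). CREB1 itself was at 7.2 ± 0.373 and 7.29 ± 0.398 TPM. An entry that names SIK1 together with a second symbol was left out of the named genes.

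Genes of surface proteins and keratins rose in 5 of 13 tested cases and fell in 0, beside 1.31% and 0.373% of all genes tested. The list median was 0.09 on the log2 scale. Members of this list too were chosen with earlier results of these data known, so the count is a description. TM4SF1, a tetraspanin-like membrane protein, read 48, 61, 75.7 and 52.1 TPM with RNO and 151, 177, 181 and 170.1 TPM with the combination. The groups lay far apart, and the rise was 2.87-fold (limma adjusted p = 2.01e-12). KRT17, a keratin of basal and stressed epithelium, read 308, 308, 287 and 268 TPM and 515, 670.0, 512 and 630.2 TPM. It rose 1.98-fold from the highest level of the 5 called genes (limma adjusted p = 1.01e-08), and its reads may be shared with near-identical copies. CD24, a glycosylphosphatidylinositol-anchored surface protein, read 24.2, 18.9, 20.5 and 13.8 TPM and 54.1, 45.6, 47.3 and 40.5 TPM, a 2.42-fold rise (limma adjusted p = 9.81e-06), with the same caution on copies. In both groups replicate 1 of CD24 was the highest and replicate 4 the lowest. PLAUR, the urokinase receptor, rose 1.21-fold from 18.1 ± 0.846 to 21.9 ± 1.22 TPM (SD, n = 4, limma adjusted p = 0.0163), a call lost without replicate 4 of the combination or RNO replicate 2 (adjusted p up to 0.11). KRT8 and KRT18 were not called.

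The other members of the 15 largest rises were CD200, PLPP3 and RHOB, with IL11 and IL6 described below. CD200, a surface glycoprotein whose receptor restrains myeloid cells, read 1.99, 2.72, 2.83 and 2.1 TPM with RNO and 4.81, 7.35, 6.44 and 7.86 TPM with the combination, a 2.75-fold rise (limma adjusted p = 3.39e-08). RHOB, an inducible small GTPase, read 28.8, 33.3, 33.8 and 28.4 TPM and 63.2, 80.9, 58.5 and 75 TPM, 2.23-fold higher (limma adjusted p = 3.39e-06). PLPP3, a lipid phosphate phosphatase of the cell surface, rose 2.34-fold from 9.96 ± 2.15 to 23.3 ± 4.48 TPM (SD, n = 4, limma adjusted p = 1.52e-07). None of the 3 had overlapping groups.

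Inflammatory cytokine genes went both ways, with 3 of 11 tested higher and 1 lower, beside 1.31% and 0.373% of all genes tested. IL11, a cytokine of the IL-6 family, read 24, 43.2, 56.3 and 33.6 TPM with RNO and 67.6, 113, 93.2 and 114 TPM with the combination. The groups did not overlap, but RNO replicate 3 was close to replicate 1 of the combination, and the rise was 2.47-fold (limma adjusted p = 5.82e-05). IL6 read 4.19, 6.32, 6.02 and 6.1 TPM and 12.7, 14.6, 10.8 and 12.2 TPM, 2.22-fold higher (limma adjusted p = 0.00319). CCL2, a monocyte chemokine, read 91, 105, 116 and 104 TPM and 158, 209, 184 and 211 TPM, a 1.83-fold rise (limma adjusted p = 1.54e-06). All 3 were higher in 4 of 4 libraries. IL16, a chemoattractant of CD4-bearing cells, fell from 1.79 ± 0.169 to 1.18 ± 0.0744 TPM (SD, n = 4, limma adjusted p = 0.00358).

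A list drawn up as negative regulators of inflammatory signalling had 5 of 22 tested members higher and 0 lower (list median 0.13). Over all genes tested the shares were 1.31% and 0.373%. The list name does not describe every member, since it also holds CEBPD, and it may not describe NFKBIZ and BCL3, which are among the 5. The count is therefore not one of restraining genes alone. SOCS3, which blocks signalling by receptors of the IL-6 family, read 15.8, 16.2, 18.5 and 14.7 TPM with RNO and 23.4, 35.4, 33.4 and 38.2 TPM with the combination. It rose on the log2 scale by 0.94 (SE 0.11, limma adjusted p = 3.53e-07), with replicate 1 of the combination lowest. CD200 was given above. CD274, which encodes the checkpoint ligand PD-L1, rose from 2.25 ± 0.789 to 4.01 ± 0.766 TPM with overlapping groups (limma adjusted p = 0.0015), and NFKBIZ, an atypical IκB protein, from 2.32 ± 0.319 to 3.27 ± 0.43 TPM (limma adjusted p = 0.00223). Both calls were lost when only the compared libraries were fitted (adjusted p = 0.159 and 0.157). BCL3, another IκB protein, rose from 8.63 ± 1.45 to 13.8 ± 3.49 TPM with overlapping groups (SD, n = 4, limma adjusted p = 0.0378), and its call was lost without any single library other than replicate 1 of the combination and RNO replicate 2 (adjusted p up to 0.228). CEBPD, an inflammatory transcription factor, was at 35.2 ± 12.2 and 68.8 ± 24.1 TPM and was called only with the replicate block (adjusted p = 1.61e-08, 0.203 without it). KLF4 was at 1.4 ± 0.226 and 2.52 ± 0.287 TPM (adjusted p = 0.0527, 0.000128 with the block).

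Genes inducible by glucocorticoids, which share several members with the cAMP list, rose in 5 of 14 tested cases and fell in 0 (list median 0.34). The 5 were SGK1, RGS2, CRISPLD2, DUSP1 and PER1, all of which are also on the cAMP list. Among 16 tested clock genes PER1 alone was called, and its call was lost without replicates 2 or 4 of the combination or replicates 1 or 4 of RNO (adjusted p up to 0.104).

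Most immediate early genes, which growth factors induce, were not called. Of 23 tested 1 rose (MYC) and 2 fell (FOSL1 and JUN), beside 1.31% and 0.373% of all genes tested. The list median was 0.04. FOSL1, an AP-1 subunit induced by ERK, read 114, 92.6, 91.7 and 91.3 TPM with RNO and 68.8, 68.2, 58.6 and 66.8 TPM with the combination. The mean fell by 0.56 on the log2 scale (SE 0.13, limma adjusted p = 0.00843), RNO replicate 1 stood above the other RNO libraries, and the call was lost without it or without replicate 3 of the combination (adjusted p up to 0.068). JUN, its partner, read 77.8, 70.0, 67.4 and 64.8 TPM and 60.3, 55.4, 51.8 and 50.7 TPM, a fall from 70.0 ± 5.62 to 54.5 ± 4.31 TPM (limma adjusted p = 0.00253). MYC rose from 49.6 ± 3.52 to 61.9 ± 2.48 TPM (limma adjusted p = 0.0465), a call lost without any single library other than RNO replicate 3 (adjusted p up to 0.237). With the replicate block the list had 6 genes higher and 4 lower, beside 3.18% and 1.61% of all genes tested. The added ones were ATF3, FOSL2, IER5L, JUNB and KLF4 on the higher side and EGR1 and CYR61 on the lower. EGR1 was at 10.0 ± 2.22 and 6.81 ± 1.06 TPM (adjusted p = 0.143, 0.00537 with the block), and FOS at 1.7 ± 0.572 and 2 ± 0.596 TPM (SD, n = 4).

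Of 13 tested MAP kinase phosphatase, Sprouty and SPRED genes 1 rose and 1 fell, and 4 rose and 3 fell with the replicate block. DUSP1, a phosphatase of stress-activated kinases, read 61.7, 86, 77.7 and 72.5 TPM with RNO and 106, 146, 109 and 150.3 TPM with the combination (limma adjusted p = 0.000736), without overlap. DUSP6, an ERK phosphatase, read 3.65, 4.07, 4.09 and 4.25 TPM and 2.17, 3.2, 2.92 and 3.1 TPM (limma adjusted p = 0.0317). Its groups did not overlap either, but the call was lost without any of 5 libraries, replicates 1 and 3 of the combination and replicates 2, 3 and 4 of RNO (adjusted p up to 0.171). DUSP5 was at 44.6 ± 4.75 and 40.5 ± 6.71 TPM and SPRY4 at 1.5 ± 0.102 and 1.28 ± 0.295 TPM (SD, n = 4, limma adjusted p = 0.985 for both).

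Of 15 tested regulators of G protein signalling RGS2 rose and RGS4 fell, while the 13 others had log2 fold changes of -0.20 to 0.09. RGS4 read 4.45, 3.35, 4.06 and 3.11 TPM with RNO and 2.56, 1.8, 1.92 and 1.38 TPM with the combination, the largest fall of any called gene on the log2 scale (-0.71, SE 0.13, limma adjusted p = 0.000624). In both groups replicate 1 was its highest library and replicate 4 its lowest.

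**Figure D3:**
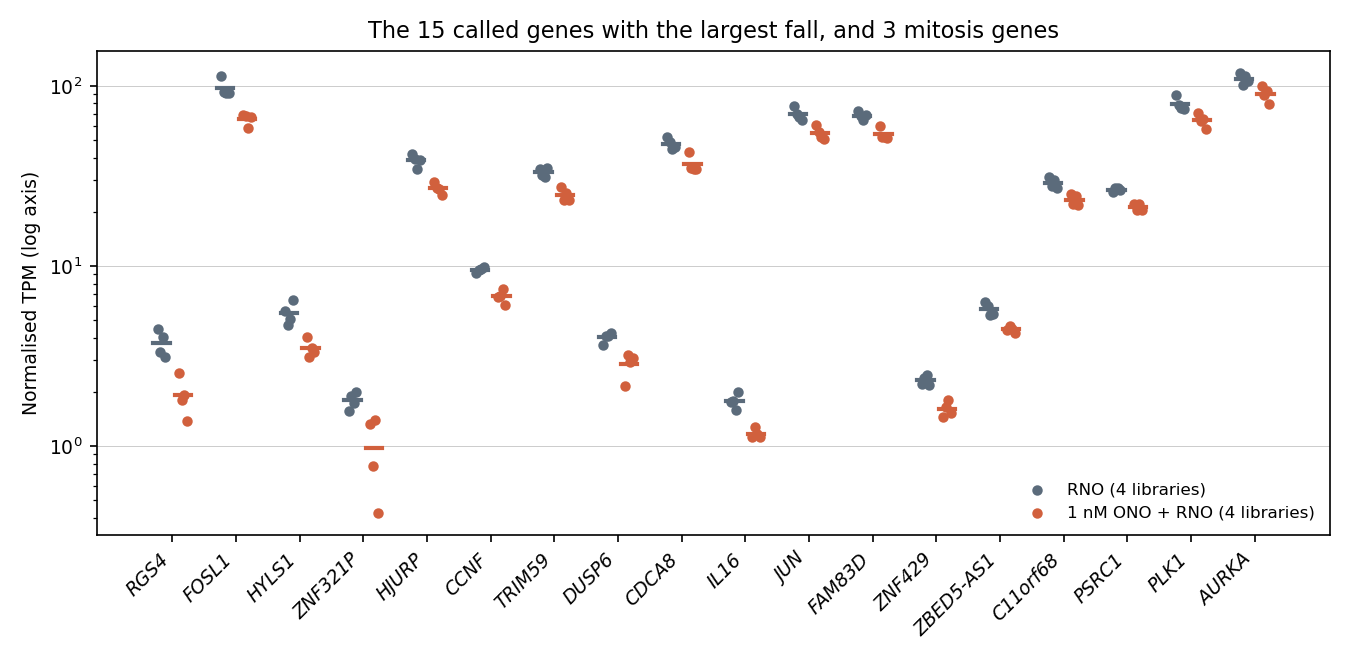
Normalised TPM (log axis) of the 15 called genes with the largest fall whose groups do not overlap, and of PSRC1, PLK1 and AURKA. Points are libraries, 4 of RNO (grey) and 4 of 1 nM ONO + RNO (orange), and bars are group means, from 3.74 and 1.92 TPM for RGS4 to 110.0 and 90.4 TPM for AURKA.

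Of 29 tested cell cycle and mitosis genes 4 fell (HJURP, PSRC1, PLK1 and AURKA) and 1 rose (PLK2), with a list median of -0.11 beside -0.00266 over all genes. With the replicate block 11 fell and 1 rose, beside 1.61% and 3.18% of all genes tested. The added ones were BUB1, CCNA2, CCNB1, CCNB2, CCND1, CDC20 and CENPE. HJURP, the chaperone that loads the centromeric histone CENP-A, read 42.1, 39.2, 34.8 and 39 TPM with RNO and 29.3, 27.2, 26.6 and 24.8 TPM with the combination. It fell by 0.51 on the log2 scale (SE 0.05, limma adjusted p = 6.27e-08), and no library overlapped. PSRC1, a spindle protein, read 25.7, 27.1, 27.1 and 26.3 TPM and 22.1, 20.6, 22.1 and 20.6 TPM (limma adjusted p = 8.44e-05). PLK1, a mitotic kinase, fell from 79.2 ± 6.51 to 64.4 ± 5.46 TPM (limma adjusted p = 0.0113), and AURKA, another, from 109.7 ± 7.52 to 90.4 ± 8.6 TPM (SD, n = 4, limma adjusted p = 0.024).

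The PLK1 call was lost without replicate 4 of the combination or RNO replicate 1 (adjusted p up to 0.105), and that of AURKA without either of these or replicate 2 of the combination or RNO replicate 3 (up to 0.212). CCNB1, which encodes cyclin B1, was at 194 ± 8.01 and 173 ± 10.6 TPM (adjusted p = 0.209, 0.000337 with the block), and CDC20, an activator of the anaphase-promoting complex, at 134 ± 7.5 and 122 ± 8.73 TPM (0.727 and 0.00807). PLK2, a stress-inducible member of the same kinase family, rose from 49.5 ± 2.99 to 63.8 ± 4.09 TPM (limma adjusted p = 0.00914, 0.0656 without RNO replicate 4). CDKN1A, the p21 inhibitor of cyclin-dependent kinases, was at 64.8 ± 6.8 and 73.1 ± 12.2 TPM (SD, n = 4, adjusted p = 0.926).

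CCNF, CDCA8 and FAM83D, which also act in the cell cycle or mitosis, are named by their size of fall and not by the list. CCNF, a cyclin that acts in a ubiquitin ligase, read 9.21, 9.55, 9.57 and 9.85 TPM with RNO and 6.77, 6.84, 7.45 and 6.11 TPM with the combination (limma adjusted p = 2.1e-05). CDCA8, a subunit of the chromosomal passenger complex, fell from 47.8 ± 3.41 to 36.9 ± 4.21 TPM (limma adjusted p = 0.00363), and FAM83D, a spindle protein, from 68.5 ± 3.24 to 53.8 ± 3.93 TPM (SD, n = 4, limma adjusted p = 0.0044). In both of these replicate 1 of the combination lay above its 3 fellows.

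The remaining named falls have less in common. HYLS1, a centriole and cilium protein, read 5.63, 4.71, 5.08 and 6.5 TPM with RNO and 4.03, 3.12, 3.49 and 3.31 TPM with the combination. It fell by 0.53 on the log2 scale without overlap (SE 0.08, limma adjusted p = 1.87e-05). TRIM59, a membrane-bound ubiquitin ligase of the TRIM family, fell from 33.2 ± 1.96 to 24.9 ± 1.92 TPM (limma adjusted p = 1.8e-05), and C11orf68 from 29.1 ± 1.92 to 23.4 ± 1.67 TPM (SD, n = 4, limma adjusted p = 0.0025). The zinc finger entries ZNF321P and ZNF429 and the antisense RNA ZBED5-AS1 also fell, with log2 fold changes of -0.53, -0.34 and -0.31. ZNF321P and ZNF429 have close relatives with which reads may be shared, and reads of ZBED5-AS1 and its partner gene cannot be told apart if counting ignored strand, on which no source used here reports. The ZNF321P groups were at 1.57, 1.9, 1.73 and 1.99 TPM and 1.33, 0.774, 1.4 and 0.424 TPM, and its call was lost without replicate 2 or 4 of the combination or RNO replicate 4 (adjusted p up to 0.157). The calls of ZNF429 and ZBED5-AS1 were each lost without any of 4 or more libraries (adjusted p up to 0.0656 and 0.163).

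Metabolic and signalling lists gave smaller rises. Of 13 tested arrestin and glycogen-targeting genes 3 rose and 0 fell. PPP1R3C, which brings protein phosphatase 1 to glycogen, read 4.92, 5.98, 6.61 and 6.22 TPM with RNO and 12, 10.6, 11.2 and 9.73 TPM with the combination, 1.83-fold higher (limma adjusted p = 2.72e-06). Its relative PPP1R3B rose 1.68-fold to 5.14 ± 0.253 TPM (limma adjusted p = 7.15e-07), and the glucose transporter gene SLC2A3 1.63-fold to 37.2 ± 9.16 TPM with overlapping groups (SD, n = 4, limma adjusted p = 0.0192). The call of SLC2A3 was lost without replicates 2, 3 or 4 of the combination or RNO replicate 1 (adjusted p up to 0.147). TXNIP, a glucose-responsive arrestin, was at 66.6 ± 9.1 and 53.9 ± 5.6 TPM and was called lower only with the replicate block (adjusted p = 0.00872, 0.702 without it).

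Of 15 tested ATF4 targets and amino acid supply genes 3 rose and 0 fell. DDIT4, an inhibitor of mTORC1, read 21, 21.7, 24.6 and 21.1 TPM with RNO and 38.6, 40.1, 35.1 and 42.7 TPM with the combination (limma adjusted p = 0.000582). The amino acid transporter genes SLC7A5 and SLC38A2 rose 1.45-fold and 1.4-fold, to 309 ± 7.37 and 238 ± 12.5 TPM (SD, n = 4, limma adjusted p = 5.4e-05 and 2.47e-06). Of 11 tested ID, SMAD and TGIF1 genes 3 rose and 0 fell: TGIF1, a corepressor of SMADs, from 28 ± 4.38 to 41.4 ± 3.28 TPM, ID3, an inhibitor of helix-loop-helix factors, from 6.05 ± 0.781 to 9.07 ± 0.715 TPM, and SMAD3 from 25.7 ± 1.43 to 29.6 ± 1.9 TPM (limma adjusted p = 0.000145, 0.021 and 0.0339). LATS2, the Hippo kinase, alone rose among 15 tested YAP and TEAD targets, 1.61-fold to 72.6 ± 6.98 TPM (limma adjusted p = 1.36e-06). With the block 2 of these 15 rose and 2 fell.

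Growth factor genes outside the EGF family had 2 of 19 tested higher, FGF9 (7.21 ± 0.567 to 9.13 ± 0.65 TPM) and WNT5A (7.18 ± 0.271 to 8.79 ± 0.41 TPM), and 1 lower, FGF5 (15.2 ± 0.806 to 12.1 ± 0.266 TPM, SD, n = 4). Their limma adjusted p-values were 0.0225, 0.0172 and 0.0157. LRIG1, a feedback inhibitor of EGF receptors, alone rose among 9 tested EGF family genes, 1.23-fold (limma adjusted p = 0.0256). These 4 calls and those of ID3 and SMAD3 were each lost without any of 3 to 5 single libraries, with adjusted p up to 0.114 (FGF9), 0.0787 (WNT5A), 0.0859 (FGF5), 0.168 (LRIG1), 0.102 (ID3) and 0.196 (SMAD3). No gene was called among 22 tested matrix and integrin genes, 12 of cholesterol synthesis, 6 of prostaglandin synthesis and clearance and 12 housekeeping genes in limma's test. With the replicate block 1, 2, 0 and 3 of them were called, beside 4.8% of all genes tested.

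The same concentration of ONO was also given without RNO, in libraries that share none with the comparison above, so the results of both can be set against each other. Against vehicle 1 nM ONO raised 82 genes and lowered 45 (0.651% and 0.357% of genes tested, 1.01% together). Of the genes that rose with RNO present 59 also rose without it, which is 35.8% of the 165 and 72.0% of the 82, and 10 fell in both, 21.3% of the 47 and 22.2% of the 45. No gene was called in opposite directions. Of the 165 genes 157 (95.2%) had a positive log2 fold change without RNO, beside 51.1% of all genes tested, and of the 47 that fell 44 (93.6%) had a negative one, beside 48.9%. Across the 212 called genes the fold changes with and without RNO had Pearson r = 0.89 and Spearman rho = 0.866, and across all 12591 genes r = 0.185 and rho = -0.0179; these are over genes, which are not independent replicates. The vehicle group holds replicate 3, a library that stands apart, and without it 92 genes were called for ONO against vehicle, while 194 and 273 were called without vehicle replicates 1 and 2.

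**Figure D4:**
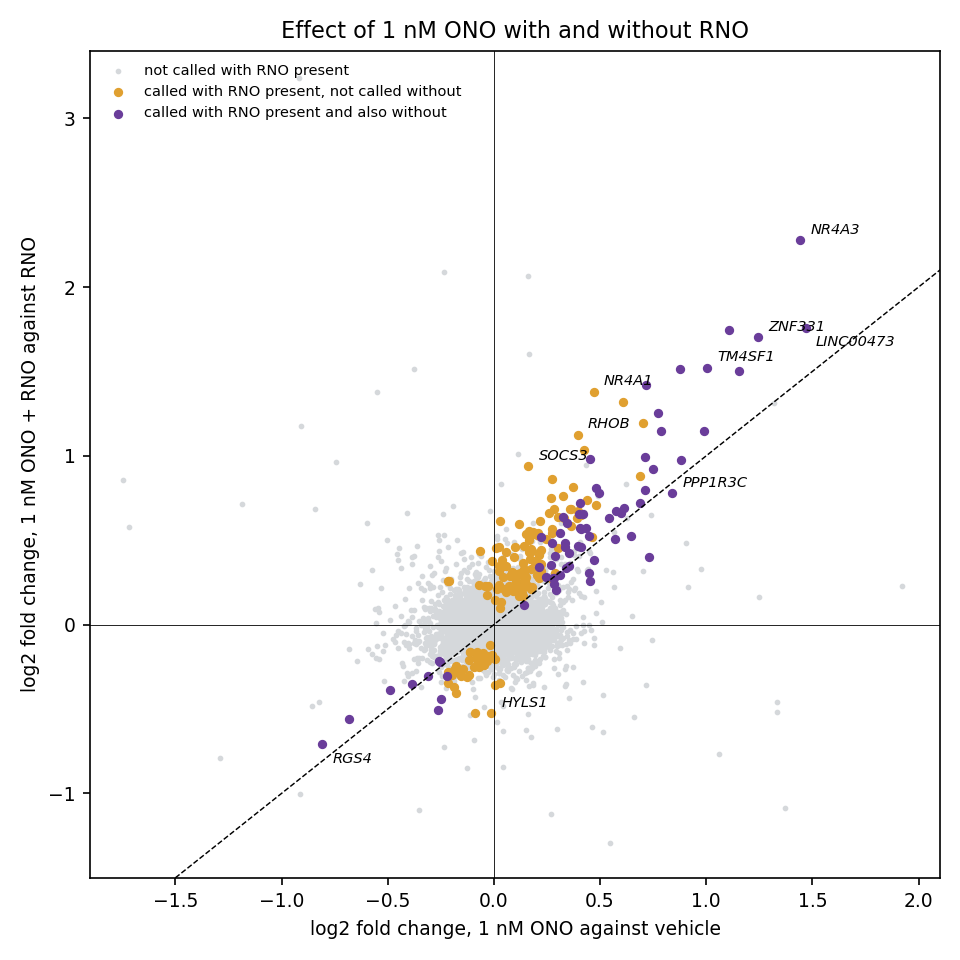
Each point is a gene: the x axis is the log2 fold change of 1 nM ONO against vehicle and the y axis that of 1 nM ONO + RNO against RNO, both on the log2(TPM + 1) scale, with equality dashed. Purple points (59 higher, 10 lower) were called in both comparisons and orange points only with RNO present; NR4A3 lies at 1.44 and 2.28.

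Most called points in the plot of both effects lie farther from 0 on the vertical axis than on the horizontal one. The median log2 fold change of the 165 genes was 0.46 with RNO and 0.26 without, and that of the 47 was -0.26 and -0.12. These genes were chosen by their change with RNO, which favours larger values there. Of the genes chosen instead by their call without RNO, 45 of 82 that rose changed more with RNO than without, and 3 of 45 that fell did. Tested directly, as the difference of the 2 effects, limma called 0 genes (1108 at an unadjusted p under 0.05), 3 with library weights and up to 6 with a single library left out. The replicate block called 213 (1.69% of genes tested, 142 higher and 71 lower). Of the 165 genes that rose 34 were among those 142, and of the 47 that fell 6 were among those 71, selected on libraries that both tests use.

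The examples here are a part of the genes for which the block called the difference, and most of them rose with RNO present. PAPPA-AS1 and ADM were also called for the difference with the block (0.90 and 0.62 on the log2 scale). With RNO present neither was called (limma adjusted p = 0.908 and 0.999). SOCS3 was among the genes called for the difference. Without RNO it read 22.5, 21.3, 19.3 and 20.2 TPM in the vehicle libraries and 21.5, 24.6, 26.2 and 21.6 TPM with 1 nM ONO, beside means of 16.3 ± 1.6 and 32.6 ± 6.46 TPM with RNO. The difference of the effects was 0.78 on the log2 scale (limma adjusted p = 0.0676, 0.0045 with the block). NR4A3 had a difference of 0.83 (0.392 and 0.042), with 1.35 ± 0.495 TPM in vehicle and 5.32 ± 0.708 TPM with ONO. RHOB had 0.73 (0.354 and 0.00974), CRISPLD2 0.71 (0.406 and 0.0212), CCL2 0.59 (0.274 and 0.017), KRT17 0.53 (0.244 and 0.00715) and TM4SF1 0.52 (0.349 and 0.0209). CREM and PLAUR, which read 9.32, 8.34, 10.2 and 8.53 TPM and 23.3, 23.4, 22.5 and 20.9 TPM in vehicle and averaged 7.69 ± 0.539 and 19.3 ± 1.5 TPM with ONO alone, had differences of 0.47 and 0.48 (limma adjusted p = 0.0676 and 0.0676, 0.0036 and 0.00366 with the block). HYLS1 fell with RNO present and was at 4.83 ± 0.311 and 4.78 ± 0.304 TPM without it, a difference of -0.51 (0.108 and 0.0121).

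For LINC00473, PDE4D, RGS4 and JUN the difference was not called in either fit, which does not show that the effects are equal. LINC00473 was at 9.46 ± 3.17 TPM in vehicle and 27 ± 2.55 TPM with ONO, 2.86-fold against 3.52-fold with RNO (adjusted p of the difference 0.697, 0.4 with the block). PDE4D read 1.9, 2.74, 1.88 and 2.21 TPM in vehicle and 4.13, 5.26, 4.77 and 5.25 TPM with ONO, 2.22-fold against 2.25-fold (0.83 and 0.661). For RGS4 the log2 fold changes were -0.81 and -0.71 (0.86 and 0.547), and for JUN -0.39 and -0.35 (0.93 and 0.825). PDE4B went the other way: it rose from 0.99 ± 0.104 to 2.23 ± 0.207 TPM without RNO (limma adjusted p = 1.57e-05), and its difference was -0.38 (0.442, 0.0455 with the block). DUSP5 and EGR1 fell with ONO without RNO, from 71.7 ± 7.04 to 44.4 ± 5.69 and from 19 ± 4.2 to 9.99 ± 1.82 TPM (SD, n = 4, limma adjusted p = 0.000314 and 0.00128), while their levels with RNO alone were already 44.6 ± 4.75 and 10.0 ± 2.22 TPM.

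The 1 nM combination was set beside a lower and a higher concentration of ONO given with RNO. No gene was called between 1 nM and 0.1 nM ONO with RNO by limma (377 at an unadjusted p under 0.05), while 65 were called with the replicate block (0.516% of genes tested), 11 with library weights and 11 without replicate 1 of the 1 nM combination. Between 1 uM and 1 nM ONO with RNO 502 genes were called (3.99%), 377 higher and 125 lower at 1 uM, 17 of them by at least 2-fold, all higher. Against the same RNO libraries, and therefore not independent of each other, 79 genes were called at 0.1 nM (0.627%), 212 at 1 nM, 1506 at 1 uM (12%) and 1957 with vilanterol (15.5%).

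NR4A3 was at 9.62 ± 1.33 TPM with 0.1 nM, 16.5 ± 4.26 with 1 nM and 68.6 ± 6.72 with 1 uM ONO, and at 68.9 ± 5.34 with vilanterol, all with RNO (SD, n = 4). The step from 1 nM to 1 uM was 4.16-fold (limma adjusted p = 1.07e-09), and that from 0.1 nM to 1 nM 0.69 on the log2 scale (adjusted p = 0.287). IL6 was at 8.69 ± 1.4, 12.6 ± 1.57 and 41 ± 11.9 TPM, a 3.26-fold step to 1 uM (adjusted p = 3.25e-06). NR4A2, CRISPLD2, ZNF331, SGK1, NR4A1, RHOB, GEM and NPTX1 completed the 10 largest steps from 1 nM to 1 uM. NPTX1, a secreted pentraxin, was at 0.244 ± 0.0922 TPM with RNO and rose to 0.821 ± 0.307 TPM with 1 nM ONO (limma adjusted p = 0.00722, 0.0715 without replicate 3 of the combination) and to 2.92 ± 0.645 TPM at 1 uM. Its means with RNO and with 1 nM ONO + RNO lay below 1 TPM, and it was tested because its mean over the series reached that level. The call was also lost with a pseudocount of 5 and when only the compared groups were fitted (limma adjusted p up to 0.188). GEM, a small GTP-binding protein, was at 7.76 ± 2.12 and 12.2 ± 2.38 TPM in the comparison (adjusted p = 0.125, 6.87e-05 with the block) and at 27.5 ± 3.66 TPM at 1 uM.

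CCL2 differed from these, at 188 ± 13.3, 190.2 ± 25 and 199 ± 21.1 TPM with 0.1 nM, 1 nM and 1 uM ONO, and its step from 1 nM to 1 uM was not called (log2 fold change 0.07, limma adjusted p = 0.913). MYC was at 59 ± 1.91, 61.9 ± 2.48 and 65.9 ± 6.07 TPM (0.08, adjusted p = 0.824). Among falls the largest step to 1 uM was that of TXNIP, at 53.9 ± 5.6 TPM with 1 nM and 28.4 ± 5.76 with 1 uM (adjusted p = 0.000113), followed among named genes by ARRDC4, a related arrestin, at 11.4 ± 1.7 and 7.03 ± 0.686 TPM (adjusted p = 1.24e-05). FOSL1 was at 65.6 ± 4.73 and 42.7 ± 4.66 TPM, JUN at 54.5 ± 4.31 and 37.8 ± 1.77 TPM and RGS4 at 1.92 ± 0.486 and 1.13 ± 0.207 TPM (SD, n = 4, adjusted p = 0.00158, 6.2e-06 and 0.0398).

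**Figure D5:**
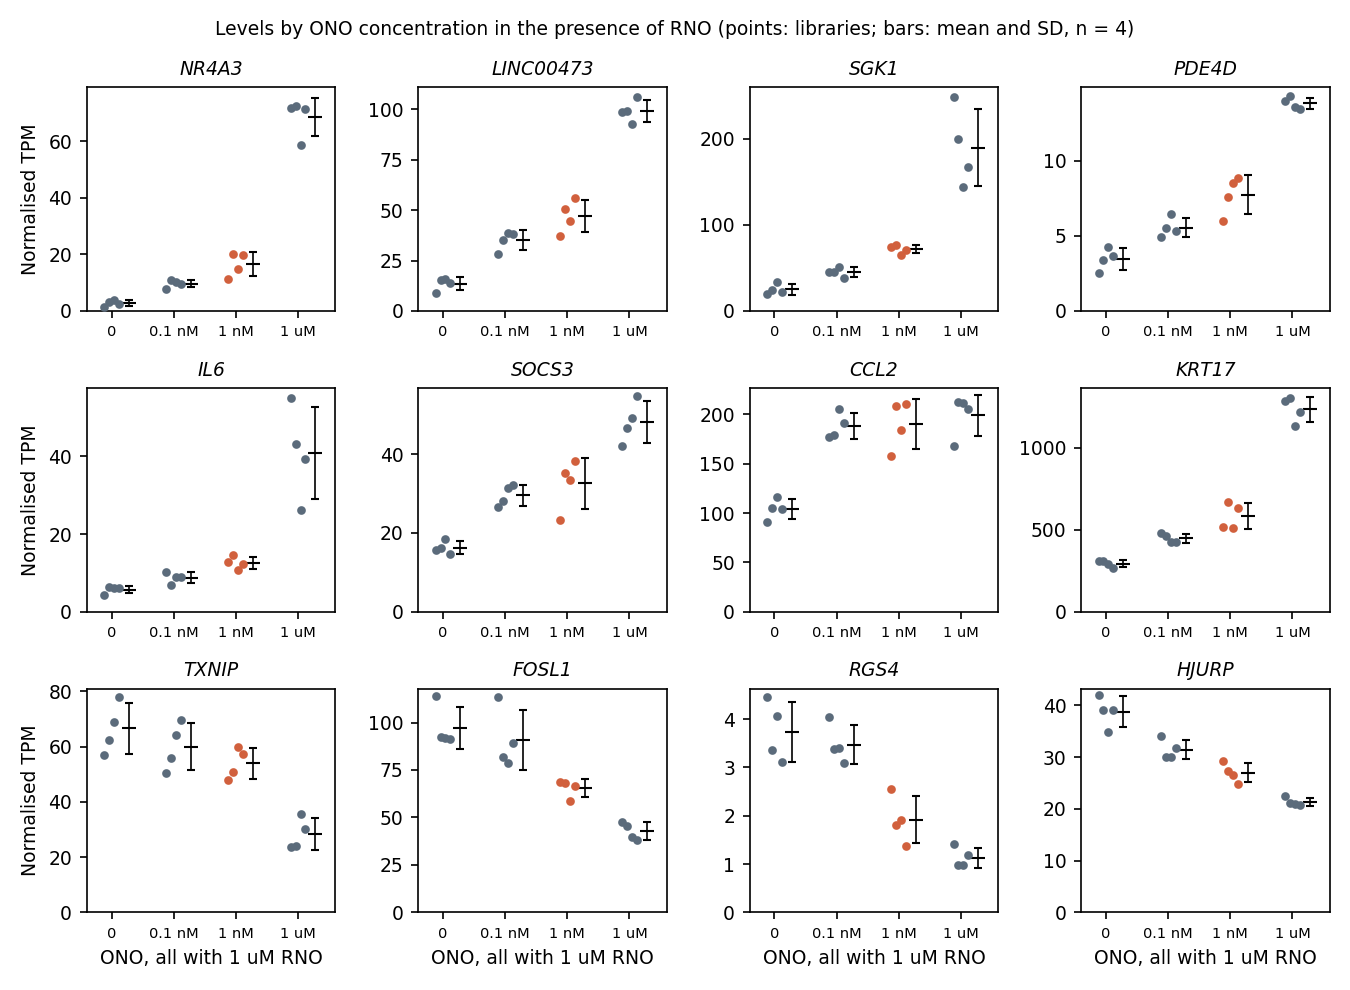
Normalised TPM (linear axes from 0) of 12 genes with RNO alone (0) and with 0.1 nM, 1 nM (orange) and 1 uM ONO, all with 1 uM RNO. Points are libraries and bars the mean and SD of 4; CCL2 is between 188 and 199 TPM on average with every concentration, whereas NR4A3 goes from 16.5 TPM at 1 nM to 68.6 TPM at 1 uM.

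In the plot of levels by concentration the 4 libraries at 1 uM lie above all those at 1 nM for NR4A3, LINC00473, SGK1, PDE4D, IL6, SOCS3 and KRT17, and below them for TXNIP, FOSL1 and HJURP, whereas those of CCL2 overlap.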

How the data were processed

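RNA was measured in 40 BEAS-2B libraries (directional poly(A) libraries, NextSeq 500, per the labels' protocols), sequenced across 2 kits that the labels do not assign to libraries. The submitters' processing notes name bcl2fastq 2.18.0.12, kallisto and sleuth and the builds GRCh37 and hg19, with no version for kallisto or sleuth. What the authors deposited is a table of 15788 entries in a normalised signal unit, TPM further adjusted between samples, as the file's name and values show. Depth is therefore unknown and no count test was run. Of the entries, 69 name more than 1 symbol and 12 equal another entry, and neither kind is named in the text.

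Values were taken as log2(TPM + 1), and 12591 genes whose mean reached 1 were fitted (R 4.3.3, limma 3.58.1 and data.table, version 1.17.8) with 1 mean per group over all 40 libraries, moderated variances and an intensity trend (30 residual degrees of freedom). The threshold was 0.05 for p-values from limma after Benjamini-Hochberg adjustment within each comparison. Folds are ratios of mean TPM. The script was tested on simulated data. Deviations from the group means of same-numbered combination and RNO libraries had r = 0.432, 0.178, 0.242 and 0.242, and the highest r with another number was 0.0554, so the replicate numbers pair the samples; the pairing comes from this check, and the labels do not say what a number stands for.

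Named genes are the 15 largest and 15 smallest log2 fold changes of called genes without overlap between the groups, members of 24 gene lists, PTGER4 and the PDE4 genes, and the 10 highest and lowest called for each step and for the difference of effects, where entries naming 1 symbol. Members and lists were chosen with earlier results of these data known. Marker lists covered epithelial, ciliated and secretory, mesenchymal, leukocyte and endothelial cells. Promoter windows came from RefSeq (GRCh38.p14), a later build than the authors'. Alternatives covered the pseudocount, the filter, scaling, library weights, robust variances, the replicate block, the groups fitted and each library left out. Fits with a library left out had no replicate block, except where the block is named. The result for 1 member of the lists is not reported here.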

Additional observations from a re-analysis of the deposited data

Results flagged for a closer look

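In 8 of 202 groups of 4 libraries, taken over 101 named genes, a single library stood apart from its 3 fellows by more than Dixon's 95% limit, and chance alone gives about 1 in 20 groups. In the combination group, replicate 1 was the library that stood apart for CDCA8 (43.2 TPM, high), FAM83D (59.6 TPM, high), RACGAP1 (85.6 TPM, high), AKAP12 (51.2 TPM, low) and PPP1R3B (4.76 TPM, low). All 5 values lay toward the RNO group, and the calls of these genes did not depend on that library alone. Among the RNO libraries, replicate 1 was low for IL6 (4.19 TPM) and high for FOSL1 (113.9 TPM), and replicate 4 was low for LRIG1 (11.7 TPM). The FOSL1 and LRIG1 calls were lost without these libraries (limma adjusted p = 0.068 and 0.168).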

How the results depend on the processing

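No call of a named gene in 1 nM ONO + RNO against RNO changed direction under any alternative run. Of the 76 named genes called, 41 were called under every alternative and 27 lost the call without at least 1 single library. Fitting only the groups compared lost 26 of the 76, rescaling libraries to equal totals 10. For CD55, CDCA8, AKAP12 and IL16 the former was the only alternative to lose the call (limma adjusted p = 0.125, 0.0705, 0.0662 and 0.0632). The same held for CD274, NFKBIZ, DBF4 and C11orf68 (limma adjusted p = 0.159, 0.157, 0.0882 and 0.0603). The replicate block, which the numbers support, called 604 genes for the comparison (401 higher, 203 lower), 213 for the difference of the effects with and without RNO, 1066 for 1 nM ONO against vehicle, 65 for the step from 0.1 to 1 nM and 1164 for that from 1 nM to 1 uM, each with RNO. With the block and without vehicle replicate 3, an alternative chosen after seeing the data, these counts were 941 (541 higher, 400 lower), 184, 612, 118 and 1784. The block removed no call of a named gene. Library weights gave 328 (88 lower), 3 for the difference, 11 for the lower step and 788 for the higher. Fitting only the groups compared gave 112 (98 higher, 14 lower), 28 for ONO against vehicle and 317 for the higher step. For the lower step a pseudocount of 5 gave 3 calls and a minimum mean of 5 gave 2. With each library left out in turn, the ranges were 154 to 256 for the comparison, 128 to 191 higher, 24 to 65 lower, 0 to 6 for the difference, 92 to 273 for ONO against vehicle, 0 to 11 for the lower step and 364 to 616 for the higher. The difference had 6 calls without ONO 1 nM replicate 1 and 4 without replicate 1 of the combination. The cause of these shifts was not tested. Fitting only the compared groups leaves fewer residual degrees of freedom and also changes the estimate of each gene's spread. Depth is unknown, so no interval from counting error limits these values.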

Other observations

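Called genes outside the gene lists and the 15 largest changes included several of known function, chosen for mention after their values were seen. Among the rises, BDNF, a neurotrophin, went from 15.3 ± 2.58 to 25.7 ± 2.99 TPM (SD, n = 4, limma adjusted p = 1.84e-05), and ACKR3, a scavenging receptor of the chemokine CXCL12, from 49.6 ± 4.71 to 83.8 ± 10.7 TPM (limma adjusted p = 5.97e-05). BCL2L11, which encodes the pro-apoptotic protein BIM, rose from 9.71 ± 0.888 to 16.3 ± 0.776 TPM (limma adjusted p = 2.76e-05). EFNA1, an ephrin, rose from 26 ± 1.85 to 42.6 ± 5.5 TPM and DMBT1, a scavenger receptor of mucosal surfaces, from 2.55 ± 0.471 to 5.7 ± 0.459 TPM (limma adjusted p = 0.000535 and 2.64e-05). AVPI1, named for its induction by vasopressin, rose 1.99-fold (limma adjusted p = 0.000209). In each of these 6 genes the groups did not overlap, and each was called under every alternative run.

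Among the falls were further genes of mitosis and its control that are on no list used here, also chosen after their values were seen. The kinesin KIF2C fell from 80.8 ± 3.46 to 70.4 ± 3.87 TPM, RACGAP1, which acts in cytokinesis, from 90.9 ± 3.15 to 81 ± 3.12 TPM, and the spindle protein CKAP2 from 78.5 ± 1.46 to 67.9 ± 3.7 TPM (SD, n = 4, limma adjusted p = 0.00708, 0.0103 and 0.00804). WEE1, the kinase that holds CDK1 inactive before mitosis, fell from 22.2 ± 0.851 to 18.5 ± 0.838 TPM, and ESPL1, which encodes separase, from 10.5 ± 0.347 to 9.16 ± 0.671 TPM (limma adjusted p = 0.0293 and 0.0428). DBF4, an activator of the replication kinase CDC7, fell from 17.7 ± 0.782 to 14.3 ± 1.37 TPM (limma adjusted p = 0.00163). With 1 library left out the call was lost for ESPL1 and WEE1 (any of 6 libraries, adjusted p up to 0.348 and 0.151), KIF2C (replicate 4 of the combination or RNO replicate 1, up to 0.0607), RACGAP1 (replicate 2 of the combination or RNO replicate 1, up to 0.0668) and CKAP2 (replicate 4 of the combination, 0.0559). Of these 6 genes all but WEE1 lost it when only the 8 compared libraries were fitted. Each of these falls was smaller than that of HJURP (log2 fold change -0.51), and no test of mitotic genes as a group was made.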
